A study of Homo sapiens with 96 samples.

Results

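The genes described here were 42 genes of excision repair, mismatch repair and translesion synthesis, taken by symbol from a count table of 44659 genes measured in A375 cells. The set held 5 mismatch repair genes, 12 nucleotide excision repair genes, 17 base excision repair genes, 1 gene of direct reversal (MGMT) and 7 translesion genes. Of the 42, 39 passed the filter on low counts and were tested among 14948 genes. ERCC5 (0 to 3 counts per library), NEIL2 (0 to 8 counts) and PARP2 (0 to 13 counts) did not pass, so no change was tested for these entries. A second entry of the table for NEIL2, which the choice by symbol did not take, had 2 to 68 counts, passed the filter and was lower in MAPKi than in DMSO in vehicle, by edgeR, with a log2 fold change of -2.01 at 0 h (adjusted p = 0.00332) and of -1.05 at 1, 3 and 5 h (adjusted p = 0.00152).

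A375 is an established human melanoma line with mutant BRAF, in which the MAPK pathway is always on. All cells were pretreated for 18 h either with DMSO or with MAPKi, the pair of vemurafenib (500 nM, a BRAF inhibitor) and cobimetinib (500 nM, a MEK inhibitor). Each pretreatment was then followed by vehicle, by cycloheximide (CHX, 100 µg/ml, which stops translation elongation), by triptolide (T, 25 µM, which stops transcription) or by both (TCHX), and cytoplasmic RNA was taken at 0, 1, 3 and 5 h. The 32 groups held 3 libraries each, or 96 in all, of 3′ mRNA tags. All groups are 1 cell line, and the labels do not say whether the 3 replicates were separate cultures, so the p-values measure only the spread between these libraries.

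Mismatch repair removes bases mispaired at replication, and works through MutS proteins that find the mismatch and an exonuclease that removes the strand. Nucleotide excision repair cuts out bulky or ultraviolet lesions in a short strand, and base excision repair removes single damaged bases through glycosylases that open the site and enzymes that fill and seal it. Translesion polymerases copy past lesions that stop the replicative polymerases. In melanocytic cells nucleotide excision repair is best known for the repair of ultraviolet damage. One member has a second role here: ERCC3 (XPB) is the subunit of the transcription factor TFIIH that triptolide binds.

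The promoters of 5 members are shown because they carry the letters of an E2F site, the element of many genes that are transcribed before DNA replication, and because 4 of the 5 belong to genes that were lower in MAPKi by at least 1 log2 unit, while the promoter of XPC, which was higher, is shown beside them. Each runs from 250 bases before to 50 bases after an annotated start (RefSeq, GRCh38.p14). Capitals mark the match to one of 4 motifs searched on both strands, TTTCCCGC, TTTGGCGC, TTTCGCGC and TTTGCCGC. UNG is shown at its second annotated start.
EXO1, chr1:241847954-241848253, plus strand: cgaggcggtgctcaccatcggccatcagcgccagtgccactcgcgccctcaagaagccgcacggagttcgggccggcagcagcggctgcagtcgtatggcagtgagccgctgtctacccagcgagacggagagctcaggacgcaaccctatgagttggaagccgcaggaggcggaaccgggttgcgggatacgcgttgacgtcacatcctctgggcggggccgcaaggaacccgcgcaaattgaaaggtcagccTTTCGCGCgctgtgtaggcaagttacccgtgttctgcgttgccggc
MSH6, chr2:47782895-47783194, plus strand: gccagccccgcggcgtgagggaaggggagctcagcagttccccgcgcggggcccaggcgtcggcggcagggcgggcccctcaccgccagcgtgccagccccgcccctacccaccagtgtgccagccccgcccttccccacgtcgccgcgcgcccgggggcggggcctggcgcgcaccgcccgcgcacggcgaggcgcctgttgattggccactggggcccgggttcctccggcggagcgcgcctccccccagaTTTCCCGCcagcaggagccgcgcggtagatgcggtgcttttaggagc
UNG, chr12:109097922-109098221, plus strand: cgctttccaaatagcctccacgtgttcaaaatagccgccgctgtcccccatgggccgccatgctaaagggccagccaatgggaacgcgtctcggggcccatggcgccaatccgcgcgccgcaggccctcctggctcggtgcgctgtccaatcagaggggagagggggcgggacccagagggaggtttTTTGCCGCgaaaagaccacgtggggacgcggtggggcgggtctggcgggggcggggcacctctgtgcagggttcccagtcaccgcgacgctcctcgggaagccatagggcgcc
REV3L, chr6:111483169-111483468, minus strand: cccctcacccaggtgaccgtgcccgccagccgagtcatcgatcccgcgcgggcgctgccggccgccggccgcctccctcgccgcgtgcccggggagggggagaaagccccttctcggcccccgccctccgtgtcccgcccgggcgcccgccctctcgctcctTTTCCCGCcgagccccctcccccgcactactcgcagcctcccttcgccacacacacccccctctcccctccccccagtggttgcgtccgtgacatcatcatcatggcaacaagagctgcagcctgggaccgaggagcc
XPC, chr3:14178552-14178851, minus strand: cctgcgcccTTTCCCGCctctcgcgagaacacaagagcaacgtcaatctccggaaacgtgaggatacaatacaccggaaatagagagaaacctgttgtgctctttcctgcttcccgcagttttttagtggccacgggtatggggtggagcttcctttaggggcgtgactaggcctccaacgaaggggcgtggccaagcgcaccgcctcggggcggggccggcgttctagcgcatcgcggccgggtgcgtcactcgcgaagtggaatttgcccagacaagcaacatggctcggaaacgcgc

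These letters were found in a promoter of 9 of the 39 members with a RefSeq promoter, or 23.1%, against 3.99% of 27305 genes with one. The 27305 were not limited to the genes tested here. Counted by promoter, since some genes have several, the share was 17.9% of 56 against 3.3% of 35116. The 9 were EXO1, MSH6, MSH3, PMS2, UNG, HLTF, REV3L, POLI and XPC. By group they covered 4 of 5 mismatch repair genes and 3 of 7 translesion genes, but 1 of 12 nucleotide excision repair genes and 1 of 14 base excision repair genes. In MSH3, 2 matches overlapped. A match says only that the letters are in this window.

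Depth ranged from 2381351 to 12520154 counts per library, with a median of 7143396. The MAPK output genes, taken as a check of the treatment, were lower in 12 of 12 cases in MAPKi at 0 h, and their summed level was 2027 to 2221 CPM in the DMSO vehicle libraries and 201 to 245 CPM in the MAPKi vehicle libraries. Of 9 melanocyte lineage markers 2 (TYR and MLANA) averaged under 1 CPM at 0 h, and the sum over the 9 was 1026 to 1101 CPM in DMSO and 2696 to 3856 CPM in MAPKi. Most of that difference was 1 gene, DCT, with a mean of 54.9 CPM in DMSO and 2131 CPM in MAPKi, while S100B was lower, at 301 and 215 CPM. Of 10 markers of other cell types, 2 (CD3E and KRT5) were at 0 in all 96 libraries and 9 averaged under 1 CPM at 0 h. Their sum was 0.317 to 2.97 CPM in DMSO and 5.01 to 8.35 CPM in MAPKi.

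Before any further treatment, 16 of 39 members were lower in MAPKi than in DMSO and 6 were higher (vehicle, 0 h). Over all genes the shares were 24.0% lower and 21.9% higher. The median log2 fold change was -0.30 for the members and 0.03 for all tested genes. The 6 members that were lower by at least 1 log2 unit were EXO1, REV3L, UNG, RAD18, MSH6 and NEIL3, and the same 6 were also lower at 1, 3 and 5 h. A bulk measurement cannot tell fewer cells of one kind from less RNA per cell.

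**Figure D1:**
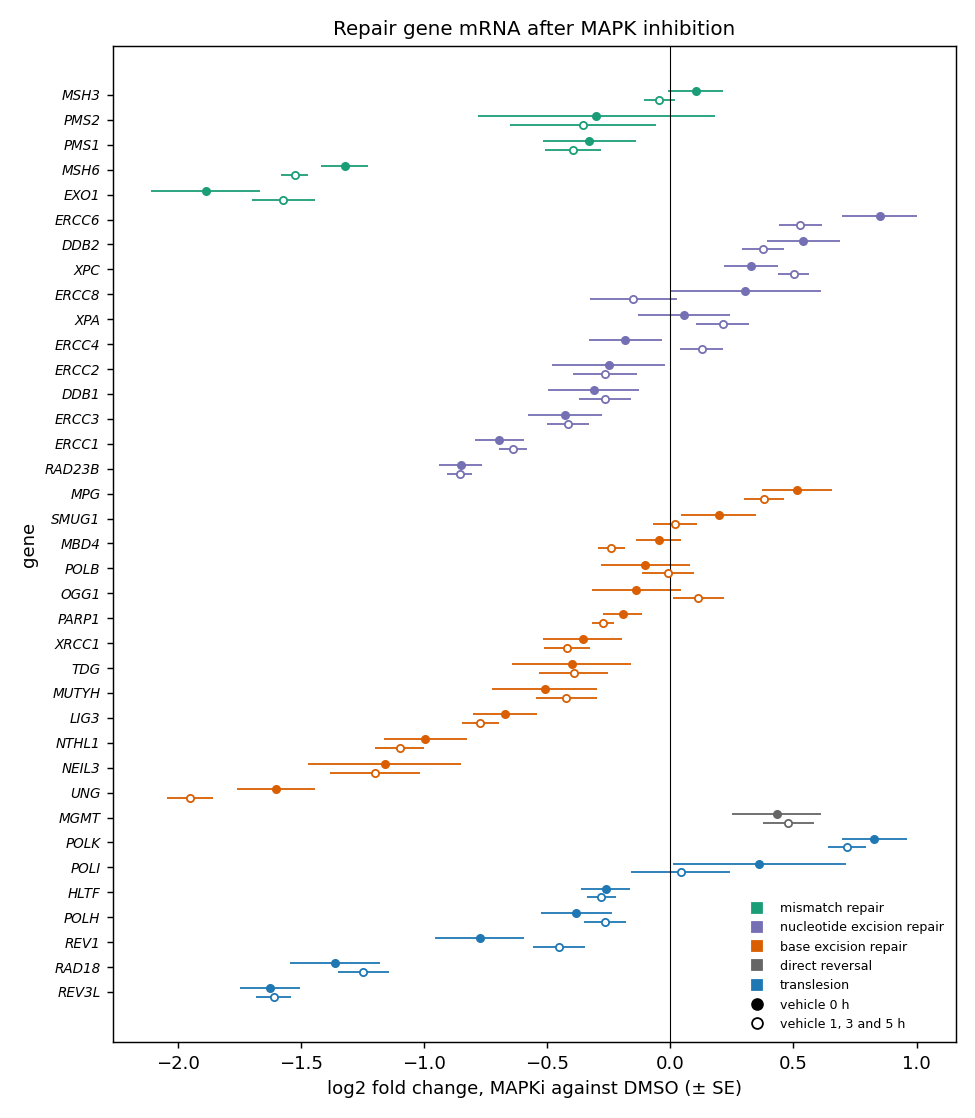
Log2 fold change of MAPKi against DMSO for each repair gene, with its standard error, in vehicle libraries at 0 h (filled) and at 1, 3 and 5 h together (open), grouped and coloured by repair route. REV3L, EXO1, UNG, RAD18, MSH6 and NEIL3 lie left of -1, POLK and ERCC6 are the most positive at 0 h, and APEX1 and NEIL1 are left out for their few counts.

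EXO1, the exonuclease of mismatch repair, was at 33.4, 34.9 and 32.9 CPM in the 3 DMSO libraries and at 8.50, 7.33 and 11.3 CPM in the 3 MAPKi libraries. The groups did not overlap, and the log2 fold change was -1.89 ± 0.22 (SE, edgeR adjusted p = 1.77e-11, n = 3 each). At 1, 3 and 5 h the 9 DMSO libraries ran from 21.8 to 36.0 CPM (median 31.7) and the 9 MAPKi libraries from 8.1 to 13.6 CPM (median 9.8). MSH6, a MutS protein that recognises single mismatches, was at 257, 255 and 257 CPM in DMSO and at 104, 109 and 95.3 CPM in MAPKi. That is a log2 fold change of -1.32 ± 0.10 at 0 h and of -1.52 ± 0.06 later, again with no overlap. Over the later times MSH6 ran from 258 to 336 CPM in DMSO and from 87.6 to 113 CPM in MAPKi.

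The other mismatch repair genes were not called at 0 h. MSH3, a MutS protein that recognises small loops, was at 74.7 ± 6.34 CPM (SD, n = 3) in DMSO and 80.1 ± 2.79 CPM in MAPKi, with a log2 fold change of 0.10 ± 0.11. PMS1 was lower by 0.39 ± 0.11 on the log2 scale at 1, 3 and 5 h. PMS2, a MutL protein, had 2 to 49 counts per library and has near-identical copies elsewhere in the genome, so its values are uncertain.

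In the translesion group REV3L, the catalytic subunit of polymerase zeta, was at 136, 139 and 142 CPM in DMSO and at 53.5, 37.7 and 43.8 CPM in MAPKi (log2 fold change -1.62 ± 0.12, edgeR adjusted p = 8.07e-20). RAD18, the ubiquitin ligase that marks PCNA for translesion synthesis, was at 30.5, 31.1 and 28.8 CPM in DMSO and at 12.8, 10.4 and 11.9 CPM in MAPKi, a log2 fold change of -1.36 ± 0.18. Neither gene's groups overlapped at 0 h or over the later libraries. REV1, the scaffold of the translesion polymerases, was lower by 0.77 ± 0.18 on the log2 scale at 0 h, POLH by 0.38 ± 0.15 and HLTF by 0.26 ± 0.10, and POLI, with 9 to 126 counts per library, was not called. POLK, a polymerase of the same family, went the other way, at 51.4, 46.5 and 38.9 CPM in DMSO and 90.9, 77.98 and 72.8 CPM in MAPKi (log2 fold change 0.83 ± 0.13, edgeR adjusted p = 1.37e-07).

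In base excision repair UNG, the uracil glycosylase, was at 104, 90.8 and 84.3 CPM in DMSO and at 25.1, 33.6 and 33.3 CPM in MAPKi. With no overlap, its log2 fold change was -1.60 ± 0.16 at 0 h and -1.95 ± 0.09 at 1, 3 and 5 h. NEIL3, a glycosylase of oxidised bases, was at 10.8, 14.7 and 9.31 CPM in DMSO and at 3.57, 6.08 and 5.93 CPM in MAPKi (log2 fold change -1.16 ± 0.31). NTHL1, a glycosylase of oxidised pyrimidines, was lower by 0.99 ± 0.17 on the log2 scale, LIG3, the ligase that closes the nick, by 0.67 ± 0.13, and MUTYH by 0.51 ± 0.21. PARP1, the sensor of strand breaks, was lower by 0.19 ± 0.08, and its groups overlapped (218 to 257 CPM against 194 to 228 CPM). MPG, the glycosylase of alkylated purines, was higher by 0.51 ± 0.14. The other 8 tested members of this group (OGG1, NEIL1, APEX1, POLB, XRCC1, TDG, MBD4 and SMUG1) were not called at 0 h. MGMT, which removes alkyl groups from guanine directly, was higher by 0.43 ± 0.18 on the log2 scale (edgeR adjusted p = 0.0421).

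**Figure D2:**
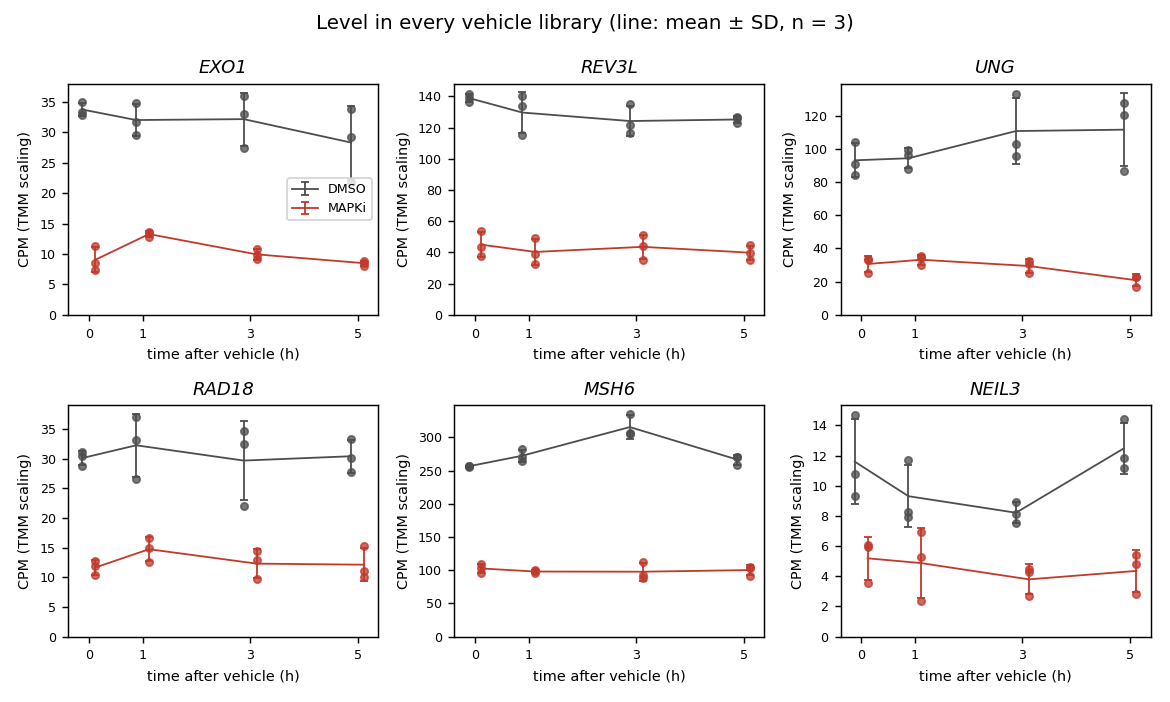
Level in CPM (TMM scaling) of the 6 members lower by at least 1 log2 unit, in every vehicle library at 0, 1, 3 and 5 h, with lines for the mean and bars for the SD of 3 libraries. DMSO (grey) stays above MAPKi (red) at all 4 times; MSH6 runs from 255 CPM upward in DMSO and up to 113 CPM in MAPKi.

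Nucleotide excision repair was split, with 3 of 11 tested members lower and 3 higher at 0 h. RAD23B, the partner of XPC in damage recognition, was at 178 ± 7.87 CPM in DMSO and 98.6 ± 2.44 CPM in MAPKi (n = 3 each), a log2 fold change of -0.85 ± 0.09. ERCC1, a subunit of the nuclease that cuts 5′ of the lesion, was lower by 0.69 ± 0.10 on the log2 scale, and ERCC3 by 0.43 ± 0.15. The recognition genes DDB2 and XPC were higher, by 0.54 ± 0.15 and 0.33 ± 0.11. ERCC6 (CSB), which acts at RNA polymerase stalled on damage, was at 20.1, 17.2 and 23.2 CPM in DMSO and 36.3, 38.3 and 35.0 CPM in MAPKi (log2 fold change 0.85 ± 0.15). ERCC4 (XPF), the catalytic partner of ERCC1, was not called, at 40.8 ± 3.00 CPM in DMSO and 36.1 ± 2.91 CPM in MAPKi, and neither were ERCC2, ERCC8, XPA and DDB1.

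At 1, 3 and 5 h of vehicle, 21 of 39 members were lower in MAPKi and 7 were higher, against 31.3% and 33.4% of all genes. The 16 members lower at 0 h were also called lower at these times, and the 6 higher at 0 h were also called higher. Lower at these times but not called at 0 h were 5 members, namely PMS1, DDB1, XRCC1, TDG and MBD4. Over all 21 lower members the largest differences at these times were those of UNG, REV3L (-1.61 ± 0.07), EXO1 (-1.57 ± 0.13), MSH6 and RAD18 (-1.25 ± 0.10). The highest log2 values among members other than APEX1 were those of POLK (0.72 ± 0.08), ERCC6 (0.53 ± 0.09), XPC (0.50 ± 0.06) and MGMT (0.48 ± 0.10). APEX1, the endonuclease of base excision repair, was also called higher, at 2.55 ± 1.07, but had 304 counts in all 96 libraries together, with 110 of them in 1 library and 0 in 43 libraries. Without replicate 3 the APEX1 value reversed, to -1.29.

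Genes of DNA replication and of cell division moved in the same comparison. Of 39 genes of the DNA replication machinery 33 were lower in MAPKi at 0 h (median log2 fold change -1.004), as were 27 of 38 genes of homologous recombination and the Fanconi pathway (median -0.80) and 12 of 18 cell division markers (median -0.54). The summed level of the cell division markers was 5923 to 6700 CPM in DMSO and 4764 to 5244 CPM in MAPKi. The part of these in the levels of the repair members was not tested. E2F letters stood in a promoter of 5 of the 16 members lower at 0 h, of 1 of the 6 higher and of 3 of the 15 not called that had a RefSeq promoter. Among genes with a RefSeq promoter, 54.3% of the replication genes had these letters. So did 18.2% of the homologous recombination and Fanconi genes and 13.3% of the cell division markers. The share was 8.89% in the other genes of the same repair routes, given next.

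Of 54 other genes of the same repair routes, 47 were tested, and 23 were lower and 4 higher at 0 h (median log2 fold change -0.37). The lowest were POLE, the leading strand polymerase (-3.52 ± 0.21), and the clamp loader subunits RFC3 (-1.64 ± 0.11) and RFC4 (-1.60 ± 0.12). The highest were POLD4, the small subunit of polymerase delta (1.86 ± 0.13), SMARCAL1 (0.84 ± 0.29) and APLF (0.82 ± 0.28). At 1, 3 and 5 h 28 were lower and 5 higher.

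The difference between pretreatments was also read in each of the 16 pairs of arm and time. Of the 39 members 15 were lower in MAPKi in all 16, which is 38.5% against 23.1% of all tested genes, and 5 were higher in all 16, which is 12.8% against 22.6%. The 15 were MSH6, EXO1, ERCC1, ERCC3, DDB1, RAD23B, UNG, MUTYH, NTHL1, XRCC1, LIG3, TDG, RAD18, REV3L and POLH. The 5 were XPA, XPC, DDB2, MGMT and POLK. These counts use the sign alone, whatever the size of the difference. In mean log2 CPM, XPA, called in neither vehicle comparison, differed by 0.000627 to 0.66, and DDB1 by -0.50 to -0.00526. The difference of mean log2 CPM of RAD23B ran from -1.004 to -0.66 across the 16 conditions. That of MSH6 ran from -2.30, under triptolide at 5 h, to -0.92, with cycloheximide at 5 h, and that of UNG from -2.41, in vehicle at 5 h, to -1.13, with cycloheximide at 3 h. ERCC6 was higher in 13 conditions and lower in 3, with a range from -0.47 to 0.94.

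**Figure D3:**
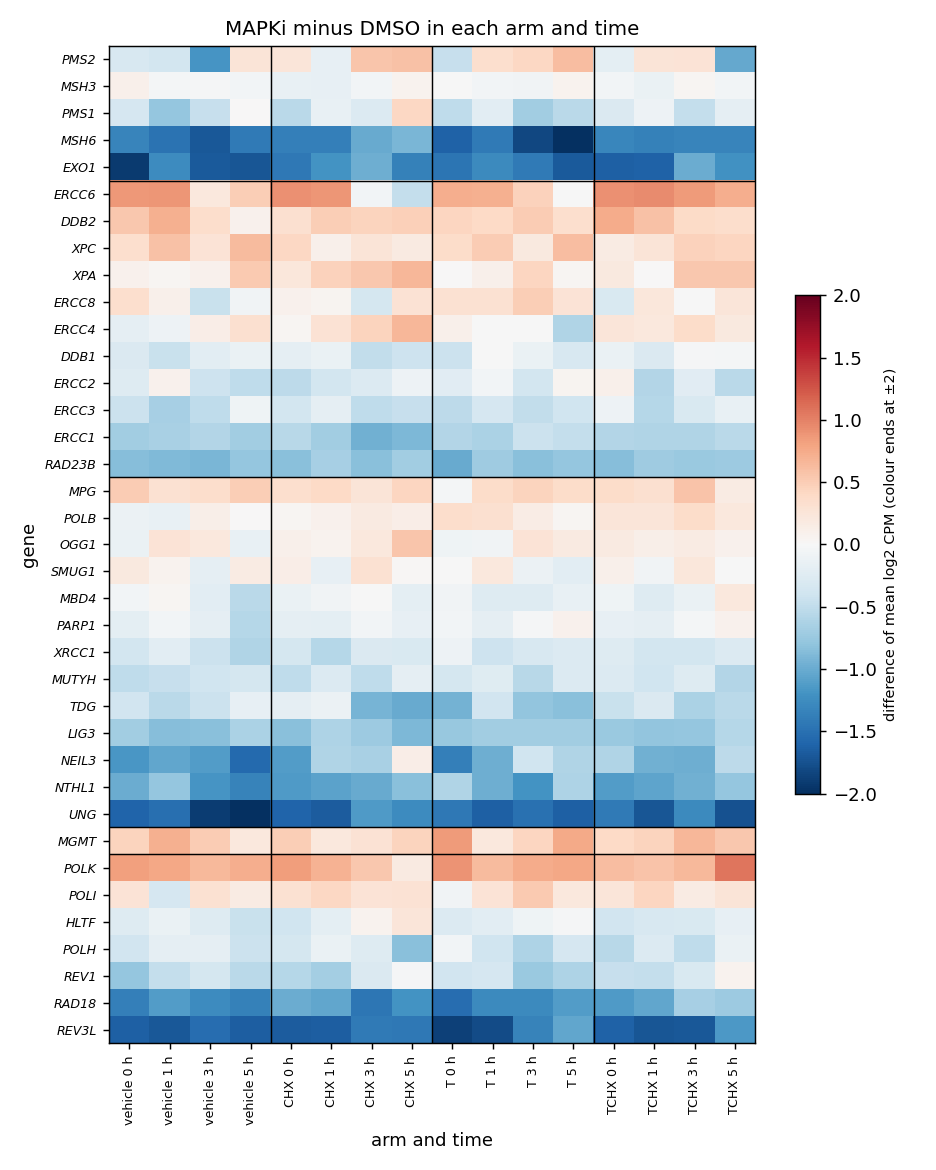
Difference of mean log2 CPM, MAPKi minus DMSO, for each member (rows, grouped by repair route) in each arm and time (columns), red where MAPKi is higher and blue where it is lower. MSH6, EXO1, UNG, RAD18 and REV3L are blue in all 16 columns, POLK, DDB2, XPC and MGMT are red in all 16, and APEX1 and NEIL1 are left out for their few counts.

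Time in vehicle alone moved few members. In DMSO 1 member was called between 5 h and 0 h, against 1.06% of all genes: ERCC6 was at 20.1, 17.2 and 23.2 CPM at 0 h and at 33.8, 33.8 and 26.2 CPM at 5 h (log2 fold change 0.61 ± 0.16). This call was lost without replicate 1 and without replicate 2. In MAPKi 2 members were called, against 3.34% of all genes, namely UNG (-0.56 ± 0.17) and MBD4 (-0.39 ± 0.09), a glycosylase of mispaired thymine. Both were lost without replicate 1, without replicate 2 and without replicate 3. By the DESeq2 test 2 members were called in DMSO and 4 in MAPKi.

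Cycloheximide alone raised 10 and lowered 9 of the 39 members in DMSO cells at 3 and 5 h, against 18.3% and 13.4% of all genes. With DESeq2 size factors in the same test 7 were higher and 10 lower. REV3L was at 116 to 135 CPM (median 124) in the 6 vehicle libraries and at 173 to 213 CPM (median 200) with cycloheximide, a log2 fold change of 0.64 ± 0.08 with no overlap. POLK (0.67 ± 0.09), ERCC6 (0.63 ± 0.11), TDG (0.56 ± 0.17) and REV1 (0.39 ± 0.13) were also higher. NEIL3 (-0.72 ± 0.22), HLTF (-0.48 ± 0.07), UNG (-0.41 ± 0.11), PARP1 (-0.40 ± 0.06) and OGG1, the glycosylase of oxidised guanine (-0.39 ± 0.13), were lower. Of the other 47 genes of these routes 6 were higher, led by WDR48 (0.53 ± 0.12), and 6 lower, led by SMARCAL1 (-0.63 ± 0.22). The members' 19 calls became 9 without replicate 1, 8 without replicate 2 and 12 without replicate 3.

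In MAPKi cells cycloheximide raised 12 and lowered 4 members, against 15.9% and 13.9% of all genes. REV3L had the largest value among these, at 35.5 to 51.0 CPM (median 41.97) in vehicle and 64.7 to 82.8 CPM (median 72.7) with cycloheximide, a log2 fold change of 0.79 ± 0.09. REV1 (0.68 ± 0.13), XPA (0.59 ± 0.13), UNG (0.56 ± 0.11) and ERCC4 (0.54 ± 0.10) were also higher. POLH, the polymerase that copies past ultraviolet dimers (-0.53 ± 0.10), MPG (-0.34 ± 0.10), ERCC1 (-0.24 ± 0.07) and RAD23B (-0.16 ± 0.06) were lower. Among the other 47 genes of these routes 10 were higher, led by POLD3, a subunit of polymerase delta (0.66 ± 0.15), and 1 was lower, RPA1 (-0.24 ± 0.08).

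The cycloheximide effect differed between pretreatments for 8 members by the interaction test, 6 in the positive and 2 in the negative direction, against 4.64% and 6.60% of all genes. With DESeq2 size factors in the same test 6 were positive and 1 was negative. UNG fell with cycloheximide in DMSO, from 86.6 to 133 CPM (median 112) to 68.7 to 95.2 CPM (median 83.0), and rose in MAPKi, from 16.8 to 32.6 CPM (median 23.9) to 29.1 to 43.1 CPM (median 36.7). The interaction of UNG was 0.97 ± 0.16 log2 units (edgeR adjusted p = 2.16e-06). MSH6 was at 258 to 336 CPM without and 243 to 296 CPM with cycloheximide in DMSO, where the groups overlapped. In MAPKi it was at 87.6 to 113 CPM without and 126 to 148 CPM with cycloheximide, and its interaction was 0.59 ± 0.09. HLTF, a ligase and helicase of damage tolerance, was at 92.2 to 118 CPM and 65.2 to 85.9 CPM in DMSO and overlapped in MAPKi, at 75.4 to 93.8 CPM and 76.8 to 94.8 CPM, with an interaction of 0.51 ± 0.10.

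The other positive interactions were those of NEIL3 (1.06 ± 0.32), MBD4 (0.27 ± 0.09) and PARP1 (0.27 ± 0.08). The negative ones were those of ERCC6 (-0.62 ± 0.15) and ERCC1 (-0.29 ± 0.10). The 8 calls became 4 without replicate 1, 3 without replicate 2 and 3 without replicate 3. UNG, MSH6 and HLTF kept their call in each of these. Of the other 47 genes of these routes 5 had a positive interaction and 0 a negative one, led by RFC5 (0.51 ± 0.14) and RFC4 (0.41 ± 0.12). Of 39 DNA replication genes 13 had a positive one.

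Decay after the stop of transcription was read on a scale set by 36 genes whose share of counts rose at least 1.1-fold at both 3 and 5 h of triptolide in every replicate. In DMSO 24 of 39 members were lower at 3 and 5 h than at 0 h of the triptolide arm, and in MAPKi 33 of 39, against 45.2% and 55.2% of all genes. The median log2 change of the members was -0.48 in DMSO and -0.68 in MAPKi, beside -0.44 and -0.60 for all genes. These counts depend on the scale. With TMM scaling 10 members were lower and 4 higher in DMSO, and 10 lower and 5 higher in MAPKi, and the median of all genes moved to 0 and 0.0563, so the members' values are read beside that median.

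All 7 translesion members were lower in both pretreatments, with a median of -1.21 in DMSO and -1.14 in MAPKi. All 5 mismatch repair members were lower as well, with medians of -0.87 and -1.18. Among called members the largest falls in DMSO were those of NEIL3 (-1.76 ± 0.27), REV1 (-1.61 ± 0.17), REV3L (-1.59 ± 0.12), PMS2 (-1.39 ± 0.41) and POLH (-1.30 ± 0.14). Among those called in MAPKi they were those of REV1 (-2.14 ± 0.19), ERCC6 (-1.95 ± 0.14), POLH (-1.94 ± 0.14), ERCC4 (-1.84 ± 0.14) and POLK (-1.61 ± 0.13). ERCC3, whose protein triptolide binds, changed by -0.49 ± 0.13 in DMSO and -0.67 ± 0.14 in MAPKi. Among the other 47 genes of these routes 24 were lower in DMSO and 30 in MAPKi, led in both by SPRTN (-1.64 ± 0.17 and -2.03 ± 0.20), a protease of DNA-protein crosslinks, and MLH3, a MutL protein (-1.50 ± 0.15 and -1.74 ± 0.16).

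The fall was larger in MAPKi than in DMSO for 3 members by the interaction test, against 3.85% of all genes, while 0.421% of all genes went the other way. With TMM scaling 1 member (MSH6) was lower and 1 higher, and with total counts likewise 1 and 1. The median interaction was -0.22 for the members and -0.15 for all genes. MSH6 kept 65.2%, 65.1% and 53.4% of its 0 h level at 5 h in the DMSO libraries and 28.4%, 38.2% and 29.8% in the MAPKi libraries, with no overlap. Its interaction was -0.66 ± 0.14 log2 units (edgeR adjusted p = 0.000874). In the DMSO libraries ERCC6 kept 25.8%, 50.7% and 43.9% at that time, and in the MAPKi libraries 19.5%, 19.3% and 19.8%, with an interaction of -0.73 ± 0.20. ERCC4 kept 32.7%, 35.7% and 42.3% in DMSO and 13.6%, 25.4% and 19.1% in MAPKi, with an interaction of -0.63 ± 0.19.

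The count of 3 became 0 without replicate 1 by edgeR, 1 (MSH6) without replicate 2 and 5 without replicate 3. The call was kept by MSH6 under 9 of 10 alternatives, by ERCC6 under 5 of 10 and by ERCC4 under 3 of 10. With all replicates 9 members had an unadjusted p under 0.05 in this direction, and the DESeq2 test called 4. Of the other 47 genes of these routes 3 fell further in MAPKi, namely ALKBH3 (-0.79 ± 0.21), RFC4 (-0.63 ± 0.18) and POLD1 (-0.52 ± 0.16).

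Cycloheximide added to triptolide left more mRNA of 17 members in DMSO and of 29 in MAPKi, against 28.4% and 41.4% of all genes. The median log2 difference of the members was 0.32 in DMSO and 0.52 in MAPKi, beside 0.23 and 0.34 for all genes. With TMM scaling 7 were higher and 3 lower in DMSO, and 14 higher and 4 lower in MAPKi. Among called members the highest in DMSO were NEIL3 (1.11 ± 0.23), REV1 (1.05 ± 0.15), PMS2 (0.95 ± 0.35), ERCC4 (0.84 ± 0.11) and REV3L (0.84 ± 0.10). Among those called in MAPKi they were REV1 (1.79 ± 0.16), ERCC4 (1.56 ± 0.11), MSH6 (1.23 ± 0.08), MBD4 (1.22 ± 0.07) and ERCC6 (1.14 ± 0.12). The PMS2 call in DMSO was kept under 4 of 9 alternatives and was lost when any replicate was left out. Of the other 47 genes of these routes 14 were higher in DMSO and 31 in MAPKi, led by SPRTN (1.20 ± 0.15 and 1.77 ± 0.16), and 1 was lower in MAPKi. Among the 37 members with at least 10 normalized counts at the start, the median kept at 5 h in MAPKi was 55.4% ± 1.41 (SD, n = 3) with triptolide alone and 92.3% ± 4.18 with both. In DMSO it was 65.7% ± 2.83 and 84.3% ± 4.16. Over all 11080 genes with such counts the medians at 5 h were near these, at 59.7% and 89.7% in MAPKi and 68.8% and 82.2% in DMSO.

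**Figure D4:**
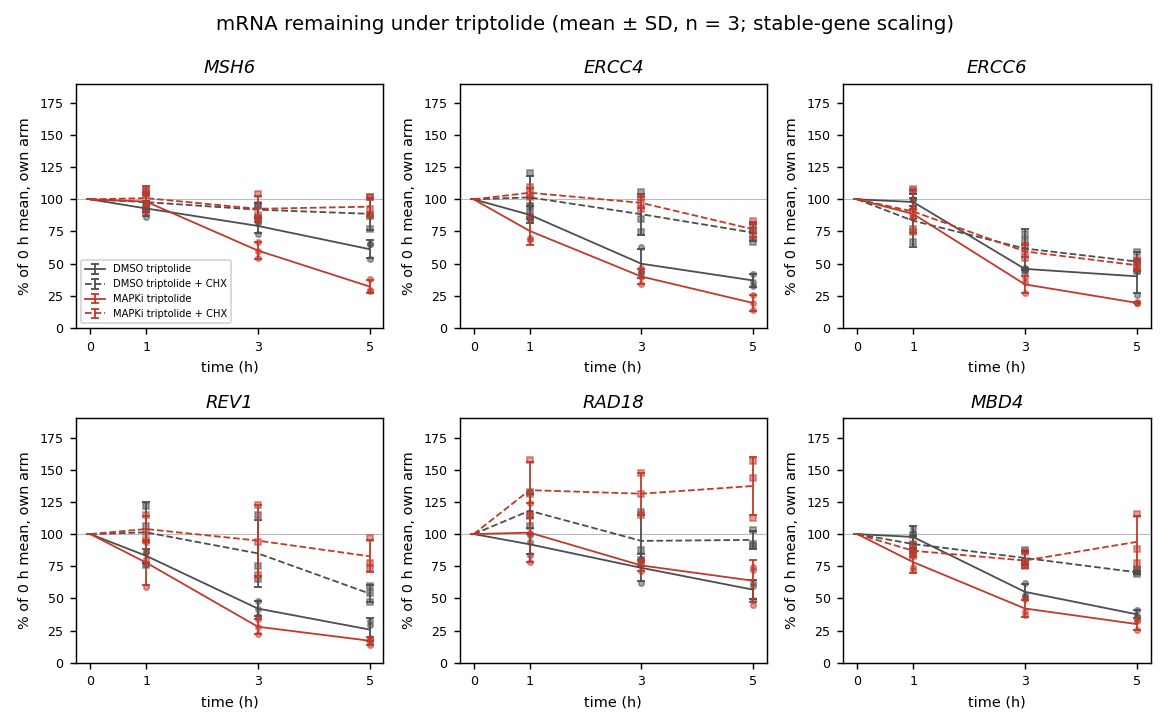
Percent of the 0 h mean of the same arm that remained under triptolide (solid) and triptolide with cycloheximide (dashed), in DMSO (grey) and MAPKi (red), for the 6 members whose cycloheximide effect differed between pretreatments. Points are libraries, lines the mean and bars the SD of 3. At 5 h MSH6 in MAPKi lies near 32% with triptolide alone and near 94% with both drugs.

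The effect of cycloheximide under triptolide was larger in MAPKi for 6 members, against 6.82% of all genes, and the median interaction was 0.20 for the members and 0.13 for all genes. With both drugs MSH6 kept 102%, 86.9% and 77.2% after DMSO and 102%, 88.1% and 92.6% after MAPKi at 5 h, so that the pretreatments overlapped with both drugs and were apart with triptolide alone. Its interaction was 0.88 ± 0.11 log2 units (edgeR adjusted p = 4.78e-09). ERCC4 kept 79.8%, 67.0% and 75.5% in DMSO and 83.1%, 71.4% and 75.8% in MAPKi with both drugs, with an interaction of 0.72 ± 0.16. ERCC6 kept 59.1%, 44.03% and 51.8% in DMSO and 46.7%, 52.7% and 46.9% in MAPKi, with an interaction of 0.73 ± 0.17.

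REV1 differed in another way. With triptolide alone its 5 h libraries stood at 29.0%, 32.5% and 15.7% after DMSO and at 19.1%, 18.7% and 13.4% after MAPKi, which overlapped. With both drugs it kept 59.8%, 47.2% and 54.2% in DMSO and 96.8%, 73.6% and 77.8% in MAPKi, which did not, and its interaction was 0.75 ± 0.22. RAD18 kept 62.2%, 48.5% and 59.6% with triptolide alone in DMSO and 74.4%, 72.0% and 44.8% in MAPKi. With both drugs it stood at 90.9%, 103% and 92.3% in DMSO and at 143%, 112% and 157% in MAPKi, with an interaction of 0.64 ± 0.18. Values above the 0 h level with transcription stopped cannot be a share kept, and their cause was not tested. MBD4 kept 71.3%, 70.6% and 69.0% with both drugs in DMSO and 77.3%, 88.7% and 116% in MAPKi, with an interaction of 0.40 ± 0.10.

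Of the other 47 genes of these routes 7 had a larger effect in MAPKi, led by RFC4 (0.83 ± 0.14), ALKBH2, a direct reversal dioxygenase (0.72 ± 0.20), and FEN1, the flap endonuclease (0.62 ± 0.20). The members' count of 6 became 3 without replicate 1, without replicate 2 and without replicate 3, and 3 with TMM scaling. MSH6 kept its call in each of these. Under 9 alternatives REV1 and RAD18 each kept theirs in 5, and ERCC4 and ERCC6 each in 8.

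Read gene by gene, the TDD (translation-dependent decay) index is the difference between the level with both drugs and with triptolide alone, as a share of the vehicle level at 0 h. Over 37 members the index had a median of 0.147 ± 0.0468 after DMSO and of 0.254 ± 0.0281 after MAPKi (SD over 3 replicates), beside 0.122 ± 0.0343 and 0.183 ± 0.0115 for 11422 genes. In a linear model on pretreatment, time and replicate, 8 members had a higher index in MAPKi with an unadjusted p no greater than 0.05, against 14.0% of all genes, while 1.41% of all genes were decreased. After Benjamini-Hochberg adjustment none of the 8 passed and 11 genes of all 11422 did. The 3 and 5 h values of a replicate share the same vehicle level at 0 h and entered the model as separate values. Its p-values may therefore be too small. With 3 replicates a side, an exact permutation test cannot go below 0.1.

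MSH6 had an index of 0.213, 0.158 and 0.176 in DMSO and 0.530, 0.429 and 0.501 in MAPKi, with no overlap. ERCC4 had 0.331, 0.288 and 0.301 in DMSO and 0.765, 0.446 and 0.642 in MAPKi. REV1 had 0.382, 0.216 and 0.409 in DMSO and 0.822, 0.563 and 0.666 in MAPKi. RAD18 had 0.0952, 0.0768 and 0.111 in DMSO and 0.407, 0.485 and 0.853 in MAPKi. All 4 were higher in MAPKi in 3 of 3 replicates, without overlap between pretreatments. EXO1 had 0.162, 0.0241 and 0.173 in DMSO and 0.822, 0.567 and 0.210 in MAPKi. The other 3 were PARP1, SMUG1, a second uracil glycosylase, and ERCC6. The count of 8 became 4 without replicate 2 and 5 with TMM scaling.

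**Figure D5:**
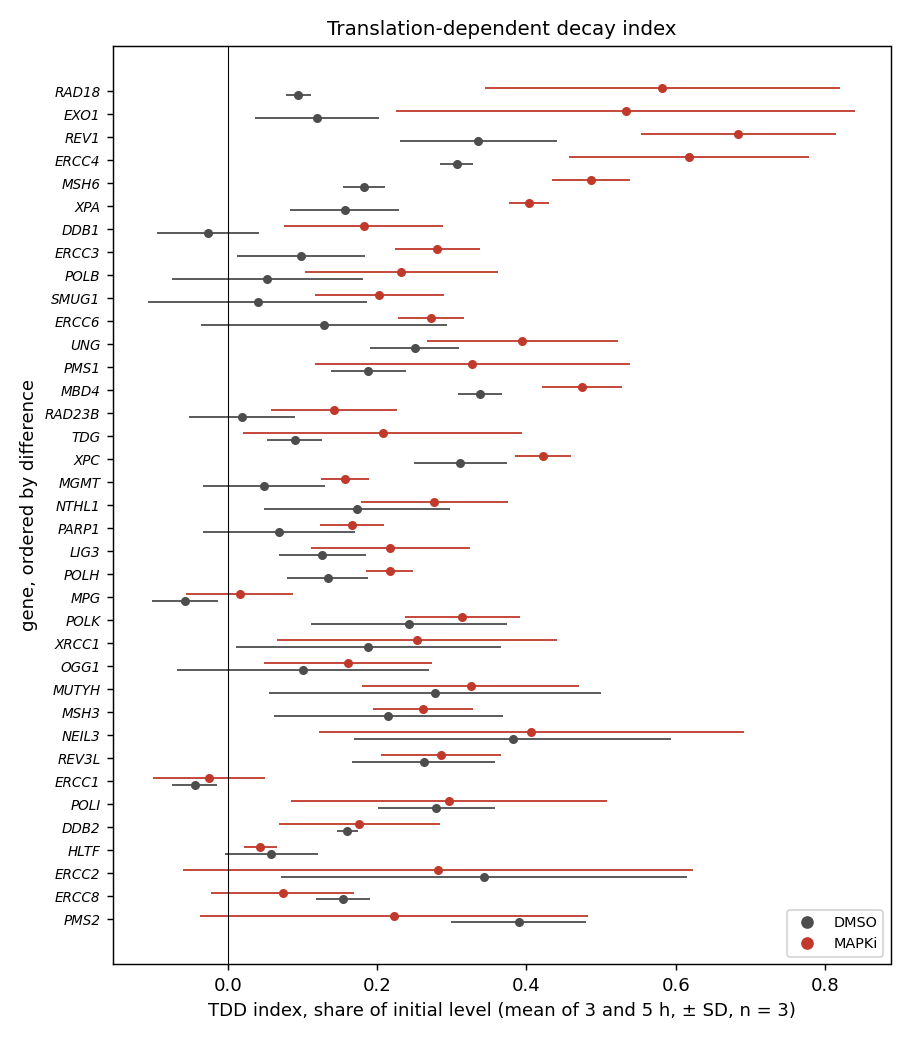
TDD index of 37 members in DMSO (grey) and MAPKi (red), as the mean of 3 and 5 h with the SD over 3 replicates, ordered by the difference between them. RAD18, EXO1, REV1, ERCC4 and MSH6 stand at the top, with MAPKi means from 0.486 to 0.683. Of the 37 differences 33 are positive, beside 7831 of 11422 over all genes.

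The coding sequences of the members differed in codon use (GENCODE release 44). The codons AAA, GAA, GAT and AAT, each ending in A or T, made up a median of 12.3% of codons in the 39 tested members and 9.34% in 11932 tested genes. By group, over all 42 members, the median was 17.8% in translesion members, 15.7% in mismatch repair, 11.9% in nucleotide excision repair and 7.53% in base excision repair. By level at 0 h the median was 11.3% in the 16 members lower in MAPKi, 9.68% in the 6 higher and 14.4% in the 17 not called. It was 16.1% (14.4% to 19.8%) in the 6 members with the larger cycloheximide effect in MAPKi under triptolide and 11.1% (3.33% to 21.0%) in the 33 others. Across the 39 members Pearson's r between this share and that interaction was 0.14 and Spearman's rho 0.37, beside 0.08 and 0.15 across all 11932 genes. Pearson's r for the members includes APEX1, whose interaction was 3.71 on a median of 1 count. The study drew these codons in part from mRNAs whose TDD index rose in MAPKi, which this same experiment measured. Setting them beside the interaction is therefore not an independent comparison. Genes are not independent replicates, and all values share the same libraries.

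The ends of some members overlap a neighbour on the other strand, and the strand setting of the counting was not stated. All 500 last bases of MSH6 (chr2:47695530-47810063, GRCh38) lie against FBXO11, which had a log2 fold change of 0.01 between MAPKi and DMSO at 0 h beside -1.32 for MSH6, and a cycloheximide interaction under triptolide of 0.49 beside 0.88. All 500 last bases of REV1 (chr2:99400475-99490035) lie against EIF5B, which had a median of 7686 counts beside 265.5 for REV1, and changed at 0 h by -0.81 beside -0.77. The interaction of EIF5B was 0.35 beside 0.75. HLTF lies against GYG1 (0.23 at 0 h beside -0.26) and LIG3 against RFFL (1.39 beside -0.67). MPG has 446 of its last 500 bases against NPRL3 (-0.13 beside 0.51), XPC has 325 against the antisense gene XPC-AS1 and a second one, and POLH has 257 against GTPBP2 (-1.86 beside -0.38). Median counts were 577 for FBXO11 beside 1181.5 for MSH6, 500 for GYG1 beside 665 for HLTF and 209 for NPRL3 beside 744.5 for MPG. Those of RFFL (11 beside 314.5 for LIG3) and GTPBP2 (8 beside 225.5 for POLH) were low, so the changes of these neighbours rest on few counts. On the same strand, 480 of the last 500 bases of MUTYH and 499 of those of ERCC5 lie in another annotated gene, so their reads may not be assigned to 1 gene. Without strand, reads of each pair cannot be told apart, so the values of these members are uncertain, as are those of NEIL1, which had 0 to 21 counts and lies against MAN2C1.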

How the data were processed

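A375 cells were profiled by QuantSeq 3′ mRNA sequencing of cytoplasmic RNA in 32 groups of 3 libraries. Per the labels and methods, the authors trimmed reads with fastp 0.20.1, aligned them with HISAT2 2.2.1 to GRCh38.p13 and counted exonic reads per gene with HTSeq 0.13.5; the deposited values are raw counts per gene, with no normalization. Strand and multimapping settings are not given in the sources used here.

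Genes were filtered by filterByExpr over all groups and tested with the quasi-likelihood test of edgeR 4.0.16 (R 4.3.3) on 1 model of all 96 libraries, two-sided, with Benjamini-Hochberg adjustment over 14948 genes and a call at adjusted p under 0.05. Comparisons of vehicle and cycloheximide used TMM scaling (CPM are TMM-scaled); those with triptolide were scaled on 36 genes with at least a 1.1-fold rise in share at both 3 and 5 h in every replicate (the study's rule, read as both times; 526 genes met it at either time). The TDD index followed the study's linear model. Percentages are relative to the mean 0 h level of the same arm. Fold changes carry the standard error, and levels the SD.

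DESeq2 1.42.0, other scalings, no filter, a replicate block and leaving out each replicate were tried. Members with |log2| of at least 1 in both vehicle comparisons are given per library, and up to 5 called members in each direction elsewhere. The members, lists and motifs were chosen with earlier results of these data known. Replicate pairs differed by 3.14 to 17.6 times counting noise (chi-square per degree of freedom), so no library was a copy of another of its group; libraries of different groups were not compared this way. The edgeR test was checked on simulated data with independent libraries, the same dispersion for all genes and TMM scaling. That check did not cover the scaling used for triptolide. A second entry of NEIL2 in the table was not counted among the members.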

Additional observations from a re-analysis of the deposited data

Results flagged for a closer look

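Each value here is a difference between the pretreatments in the effect of a drug, tested as an interaction in edgeR with an adjusted p under 0.05, in log2 units of MAPKi minus DMSO. The effect of cycloheximide on vehicle cells differed for NEIL3 (1.06), UNG (0.97), MSH6 (0.59), HLTF (0.51), MBD4 (0.27), PARP1 (0.27), ERCC1 (-0.29) and ERCC6 (-0.62). For UNG the effect fell in DMSO and rose in MAPKi, with each direction called on its own. The fall under triptolide differed for ERCC6 (-0.73), MSH6 (-0.66) and ERCC4 (-0.63). The effect of cycloheximide under triptolide differed for MSH6 (0.88), REV1 (0.75), ERCC6 (0.73), ERCC4 (0.72), RAD18 (0.64) and MBD4 (0.40). The tests share libraries in part. Several of these calls, that of RAD18 among them, were lost under some alternative runs.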

How the results depend on the processing

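The counts of members that differed between MAPKi and DMSO in vehicle (22 at 0 h, 28 later) stayed within 1.5 times under each alternative run, with 16 to 17 at 0 h and 24 to 26 later when 1 replicate was left out. Counts below are members called, beside the main count. With TMM scaling, decay in DMSO gave 14 (main 24), decay in MAPKi 15 (33), cycloheximide under triptolide 10 in DMSO (17) and 18 in MAPKi (29), its interaction 3 (6) and the TDD index 5 (8). With total counts decay gave 13 and 14, and cycloheximide under triptolide 10 and 18. Without the filter on low counts, cycloheximide in DMSO gave 12 (19), the decay interaction 1 (3) and 5 h against 0 h in DMSO 0 (1). The DESeq2 test gave 2 for 5 h against 0 h in DMSO and 4 in MAPKi (2).

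Leaving out 1 replicate gave 0 to 1 for 5 h against 0 h in DMSO, 0 to 0 in MAPKi, 8 to 12 for cycloheximide in DMSO, 3 to 4 for its interaction, 0 to 5 for the decay interaction, 3 to 3 for cycloheximide under triptolide by pretreatment and 4 to 9 for the TDD index. Fewer libraries entered these fits. APEX1 at 1, 3 and 5 h ran from -1.29 to 4.18. The cause of the other changes was not tested.

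Same-numbered samples correlated from -0.0407 to 0.0296 at 0 h (3 pairs). At 1, 3 and 5 h the median was 0.0494 for the same number and -0.0202 for different numbers, with 12 of 45 same-numbered pairs over 0.1. Not every pair passed 0.1, so the main edgeR tests did not pair samples by these numbers. The column headers share a prefix within each replicate number, but its meaning is not stated. The TDD index and its model did use the replicate number. With the replicate block the counts were 22 at 0 h, 28 later and 2 for 5 h against 0 h in DMSO. Of 586 values of named genes under the alternatives, 515 kept direction and call, 70 lost the call and 1 reversed. Few counts limit ERCC5, NEIL2, PARP2, APEX1 and NEIL1; the cause was not tested.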
